A study of Mus musculus with 16 samples.

Results

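In mouse medullary thymic epithelial cells (mTEC), 175 of 29470 H3K4me2 peaks (0.594%) carried more of the mark in the populations mTEC-I and mTEC-III than in mTEC-II and mTEC-IV. The peaks were chosen by their values: outside the mitochondrial chromosome, the lower of the mTEC-I and mTEC-III means had to reach 40 tags per 10000000 tags of the library and 1.5 times the higher of the mTEC-II and mTEC-IV means. That contrast, called the ratio below, is therefore a description and was given no test. The tests concern differences whose direction the choice did not set: whether mTEC-III differed from mTEC-I, and whether mTEC-IV differed from mTEC-II, at these peaks.

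H3K4me2 is a histone mark of promoters and enhancers, and chromatin immunoprecipitation followed by sequencing (ChIP-seq) counts the DNA fragments, here called tags, that carry it. Medullary thymic epithelial cells show proteins of many other tissues to developing T cells. They include cells with basal keratins, Aire-expressing cells rich in MHC class II, cells that go on to a keratinocyte-like cornified state, and tuft-like cells. In stratified epithelium such as skin, keratin 5 marks the basal layer, other keratins replace it in the layers above, and desmosomes hold the cells of all living layers together.

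All cells came from thymi of C57BL/6 mice and every sort gate took Epcam-positive cells without CD45. The mTEC-I gate added low MHC class II and Itgb4, the mTEC-II gate high MHC class II, the mTEC-III gate Ly6D, and the mTEC-IV gate low MHC class II, absence of Itgb4 and presence of L1cam. As labelled, the gates of mTEC-I and mTEC-III do not exclude each other, and whether cells of one gate were also in the other was not tested. Each population had 2 H3K4me2 libraries. Whether separate mice gave the replicates is not in the labels, and p-values therefore speak only of the spread among the libraries at hand, and part of it may be technical. In sorted pools, a peak carried by fewer cells and a peak with less mark per cell cannot be told apart.

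Tuft cell genes were high in mTEC-IV, with Trpm5 at 633 against 19.7 to 35.9 in the other population means, and the cornified genes Ly6d and Ivl were highest in mTEC-III. Several basal and cornified genes also set mTEC-I and mTEC-III apart from each other. Lamb3, a laminin chain of the basement membrane, stood at 177 in mTEC-I and 19.2 in mTEC-III. Ivl, which encodes involucrin, stood at 15.9 and 130.0. Other markers did so less or went the other way. The basal genes Itgb4 and Trp63 stood at 308 and 985 in mTEC-I and at 225 and 1078 in mTEC-III, summed over their peaks. The cornified gene Krt1 stood at 177 in mTEC-I and 194 in mTEC-III, and was highest in mTEC-IV, at 264. Aire, whose product defines an mTEC stage, and the thymocyte genes Cd3e, Rag1 and Cd4 had no peak assigned to them (a peak there with a nearer start of another gene would be missed). Some genes of other cell types did differ between populations. Ptprc, which encodes CD45, stood at 267 in mTEC-IV and 32.0 to 43.9 in the other means. The endothelial gene Cdh5 stood at 113 in mTEC-IV and 8.36 to 17.6 elsewhere. Pecam1 and Kdr, also endothelial, were not highest in mTEC-IV. They stood at 59.7 and 222 there, against 73.2 to 77.0 and 142 to 243 elsewhere. The fibroblast gene Dcn stood at 87.4 in mTEC-I and 10.1 to 36.8 elsewhere. Pdgfra, also of fibroblasts, stood at 359.5 in mTEC-I and 148 to 213 elsewhere, and Itgax, of dendritic cells, at 84.7 in mTEC-III and 10.4 to 25.4 elsewhere. Library totals ran from 1702103.5 to 15412132.5 tags, and the shallowest was mTEC-I replicate 2, where a value of 40 rests on 6.81 tags (the 95% Poisson interval from 7 tags is 16.5 to 84.7 tags per 10000000 and covers counting error only).

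The sequences below stand for members whose values are given first. The promoters are those of genes whose member peak covers the start site, taken in order of the ratio among the 27 such genes with 1 promoter entry. They run from 250 bases before to 50 after the start in RefSeq's GRCm38.p6, while peak positions are in mm9, so they were matched by gene symbol (35 of 57 genes had an entry) and not by position. Capitals mark the AP-1 letters TGANTCA and the TEAD letters GGAATG, on either strand.
Mill1: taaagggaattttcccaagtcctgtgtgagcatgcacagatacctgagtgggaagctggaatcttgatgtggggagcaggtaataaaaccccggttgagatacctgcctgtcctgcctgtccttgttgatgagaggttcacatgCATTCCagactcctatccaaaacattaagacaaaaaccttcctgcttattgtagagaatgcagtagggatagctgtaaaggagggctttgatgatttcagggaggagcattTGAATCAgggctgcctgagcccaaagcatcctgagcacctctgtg
Dnase1l2: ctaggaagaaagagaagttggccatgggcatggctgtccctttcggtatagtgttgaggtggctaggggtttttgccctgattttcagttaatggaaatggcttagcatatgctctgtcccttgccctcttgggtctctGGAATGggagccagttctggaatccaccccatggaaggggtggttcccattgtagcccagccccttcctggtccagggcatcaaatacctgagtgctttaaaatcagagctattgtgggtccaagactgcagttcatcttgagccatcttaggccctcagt
Serpinb5: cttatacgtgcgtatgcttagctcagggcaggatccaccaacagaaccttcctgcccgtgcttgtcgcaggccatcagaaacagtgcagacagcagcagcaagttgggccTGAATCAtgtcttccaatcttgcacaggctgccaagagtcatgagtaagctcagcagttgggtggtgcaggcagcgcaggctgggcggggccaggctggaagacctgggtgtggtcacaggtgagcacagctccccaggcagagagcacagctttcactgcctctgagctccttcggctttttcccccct
Anxa8: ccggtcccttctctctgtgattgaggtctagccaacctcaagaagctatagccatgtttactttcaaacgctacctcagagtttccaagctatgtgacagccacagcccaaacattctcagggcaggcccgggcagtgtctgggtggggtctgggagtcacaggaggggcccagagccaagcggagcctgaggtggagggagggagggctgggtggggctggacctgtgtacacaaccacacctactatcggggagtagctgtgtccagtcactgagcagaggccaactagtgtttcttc
Mill1 holds both motifs, Serpinb5 an AP-1 match, Dnase1l2 a TEAD match and Anxa8 neither. Among the 49 promoters of the 35 genes, 16.3% held TGANTCA and 26.5% GGAATG, beside 7.81% and 14.7% of all 32851 promoters in the table. In all, 22 motifs were searched on both strands, some of which overlap each other, and 14 had a higher and 8 a lower share in the 49 than in the whole table. Higher shares included the E box CAGCTG (30.6% against 16.3%), the KLF/SP letters CCNCNCCC (67.3% against 49.5%), the KLF letters GGGTGTGGC (8.16% against 1.35%) and the RUNX letters TGTGGT (22.4% against 16.8%). Lower shares included the ETS letters CCGGAAGT (2.04% against 3.89%), and 7 motifs were in none of the 49. Among these were the GATA letters AGATAAG (3.04% of all promoters), the CRE letters TGACGTCA (1.79%), the octamer ATGCAAAT (1.74%), the GRHL letters AACCGGTT (0.146%), and the glucocorticoid, p63 pair and CTCF motifs (each under 0.5%). The other motifs, all with higher shares, were the p53 family core, TFAP2 (GCCNNNGGC), NF-kappaB, interferon response, STAT (TTCCNGGAA), CEBP (TTGCNNAA), SOX (CCTTTGTT) and FOX (TGTTTAC). Several genes had more than 1 promoter entry, these shares carry no test, and a match of letters is not a bound site.

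A further 6 members lay nearest the start of a microRNA gene, and all 6 had a mature sequence in RefSeq's GRCm38.p6. The arms of miR-205, an epithelial microRNA whose start the peak covers, and of miR-3547, which has the largest ratio of the 6, are shown with the seed (bases 2 to 8) in capitals.
mmu-miR-205-5p: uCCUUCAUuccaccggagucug
mmu-miR-205-3p: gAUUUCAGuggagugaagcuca
mmu-miR-3547-5p: gUGGGAAGagggguggggcccggga
mmu-miR-3547-3p: uGAGCACCaccccucucucag
The 9 mature forms of the 6 genes had 9 different seeds. H3K4me2 near a microRNA gene does not measure the microRNA.

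The 175 peaks had moderate levels in mTEC-I and mTEC-III and low levels elsewhere. Their median was 73.1 tags per 10000000 in mTEC-I and 79.3 in mTEC-III, beside 78.2 and 74.97 over all peaks. In mTEC-II and mTEC-IV the medians were 33.8 and 24.6, against 80.3 and 89.9 over all peaks. The ratio ran from 1.502 to 6.55 with a median of 1.80. It was at least 2 at 61 peaks and at least 3 at 8. All 4 mTEC-I and mTEC-III libraries lay above all 4 others at 171 of the 175 (6.76% of all peaks did so), a contrast the choice used. The 4 exceptions, at LOC100862268, Mpped2, Reep3 and Utrn, became 2 when mTEC-I replicate 2 was left out.

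**Figure D1:**
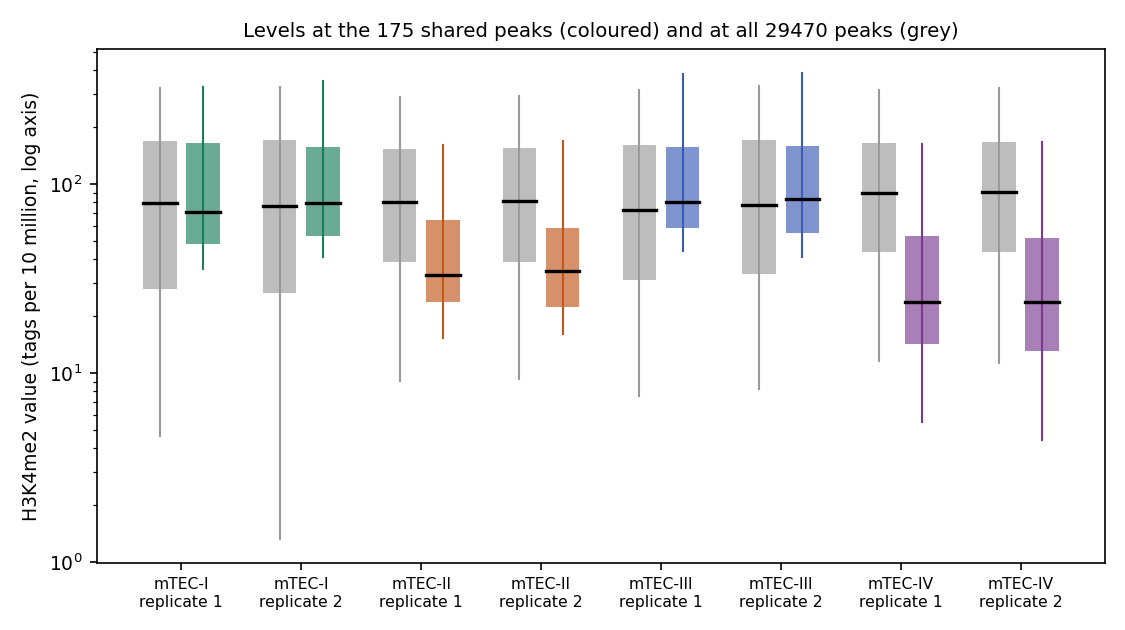
H3K4me2 values in each of the 8 libraries at the 175 shared peaks (coloured) and at all 29470 peaks (grey), in tags per 10000000 on a log axis; boxes span the middle 50% of peaks, black lines are medians and thin lines run from the 5th to the 95th percentile. Shared peaks have medians of 71.2 to 83.0 in the mTEC-I and mTEC-III libraries and of 23.6 to 34.8 in the others.

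Peaks near the limits of the choice show how narrow it is. Just inside the ratio limit stood peaks at Plau (1.502), Fignl2 (1.503) and LOC100505025 (1.509), and just outside it peaks at Ctnnd1 (1.499), App (1.497) and Mir7057 (1.496). At the limit of 40, peaks at Oxr1 (40.1), A930001C03Rik (40.1) and Gem (40.3) were inside, and peaks at Mesp1 (39.99), Sfn (39.5) and a second Abhd17c peak (39.5) were outside.

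When the rule was applied to the replicate 1 libraries alone it chose 184 peaks, and in the replicate 2 libraries the lower of mTEC-I and mTEC-III still exceeded the higher of the others at 167 (90.8%). Among all peaks that reached the level limit in replicate 1 that share was 28.1%. The full ratio of 1.5 held at 104 of the 184 (56.5%), against 0.917% of those peaks. In the other direction 209 peaks were chosen in replicate 2, of which 176 (84.2%) kept the order in replicate 1 and 113 (54.1%) kept the ratio, beside 25.8% and 0.954%. The order of the populations was thus found again at most peaks in libraries that had not chosen them, and the full ratio at a smaller share.

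Of the 6 pairs of populations under the same rule, mTEC-I with mTEC-III gave the fewest peaks. The pair mTEC-I with mTEC-IV gave 199, mTEC-III with mTEC-IV 355, mTEC-II with mTEC-III 375, mTEC-II with mTEC-IV 381 and mTEC-I with mTEC-II 466. Peaks strongest in 1 population alone by the same limits numbered 654 in mTEC-I and 1007 in mTEC-III. These sizes were not tested against each other, and the part of library depth in them was not tested.

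In the authors' deposited tables of peaks per population, all 175 members overlapped the mTEC-III list, as did 64.5% of all peaks. Only 27 members (15.4%) overlapped the mTEC-I list of the authors' deposited tables, a list of 7036 peaks whose lowest value is 142.7, so most members were too low to enter it. The mTEC-II and mTEC-IV lists of the authors' deposited tables held 57 (32.6%) and 34 (19.4%) of the members, beside 80.2% and 75.5% of all peaks. The choice also limited the mTEC-II and mTEC-IV levels, so the overlaps with the lists are descriptions and no separate support for it. The membership of 110 members in the mTEC-III list of the authors' deposited tables and in no other therefore says little about mTEC-I, whose list is the shortest.

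Most of the shared peaks lay away from start sites. A start site was covered by 57 of the 175 (32.6%, Wilson 95% interval 26.1% to 39.8% for counting error), by 44.8% of all peaks and by 68.3% of peaks whose mTEC-I and mTEC-III means both reached 40. By the files' annotation 94 were intronic, 58 intergenic, 10 at a promoter, 7 exonic, 3 in a 3′ untranslated region and 3 at a transcript end. A distance of over 20 kb from the nearest start was found for 73 (41.7%, against 31.6% of all peaks). The median width was 1984 bases, near the 2140 of all peaks. Sets that the same rule gave for other pairs of populations covered start sites at 18.03% (mTEC-I with mTEC-II) to 24.6% (mTEC-I with mTEC-IV).

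**Figure D2:**
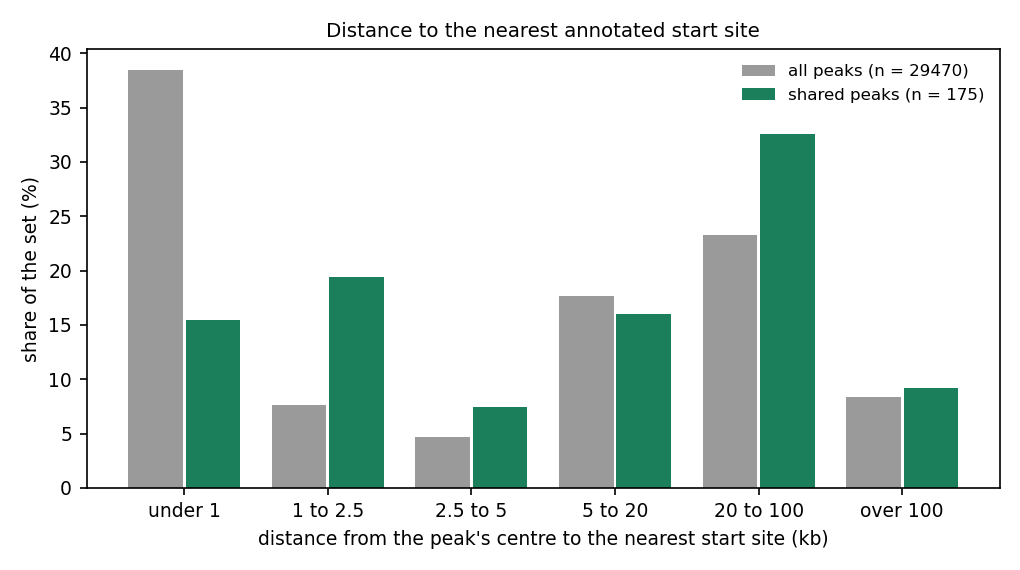
Share of the 175 shared peaks (green) and of all 29470 peaks (grey) by distance from the peak's centre to the nearest annotated start site, in kb. Under 1 kb the share is 15.4% of shared peaks and 38.4% of all peaks, and between 20 and 100 kb it is 32.6% and 23.3%.

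The 57 peaks that cover a start were the stronger ones. Their medians were 199 in mTEC-I, 217 in mTEC-III, 93.7 in mTEC-II and 81.7 in mTEC-IV. The other 118 had medians of 59.5, 63.9, 28.7 and 18.1. The ratio was alike in both kinds, with medians of 1.72 and 1.82.

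The members belonged to 168 genes by nearest start, and 7 genes had 2 member peaks: Krt5, Dapl1, Pex14, 1810011O10Rik, 9430078K24Rik, Serpinb5 and Plekha7. In 6 of the 7 the peaks were under 50 kb apart, with gaps of 519 bases at Krt5, 2421 at Plekha7, 2570 at Serpinb5, 6868 at Pex14, 20216 at 1810011O10Rik and 33292 at Dapl1. For 45 of the 168 genes the member was the only peak. The other 123 genes had 367 further peaks, of which 77 (20.98%) had both the mTEC-I and the mTEC-III mean above both other means, beside 18.8% of all peaks that are not members. Most other peaks of the same genes therefore did not have the members' order of populations.

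The largest ratio belonged to Mill1, which encodes an MHC class I-like protein. Its peak at chr7:18829740-18835232 covers the start and is centred in the first intron. It stood at 319.6 and 376 in mTEC-I, 331 and 296 in mTEC-III, 50.6 and 45.2 in mTEC-II, and 21.99 and 14.3 in mTEC-IV. Every mTEC-I and mTEC-III library was far above every other, and the ratio was 6.55. Between mTEC-III and mTEC-I the log2 difference was -0.15 ± 0.20 (SE; limma, adjusted p = 0.617), and mTEC-IV was lower than mTEC-II by a log2 difference of -1.38 ± 0.20 (adjusted p = 0.000373).

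Next came Dnase1l2, a DNase of cornifying keratinocytes, with a ratio of 3.79. Its peak at chr17:24579102-24581004, on the start site, had 58.8 and 41.1 in mTEC-I, 87.7 and 100.1 in mTEC-III, 9.41 and 7.03 in mTEC-II, and 13.2 and 13.1 in mTEC-IV. Both mTEC-III libraries were above both mTEC-I libraries (log2 difference 0.92 ± 0.32, adjusted p = 0.0491), a call that ended without mTEC-I replicate 2 (adjusted p = 0.129), without either mTEC-III library (0.144 and 0.218) and in 6 other alternatives (0.059 to 0.0893). An intronic peak of Myo18a, an unconventional myosin, followed at 3.76, the second Plekha7 peak at 3.62, Mir3547 at 3.37 and Serpinb5 at 3.36. Krtdap, a secreted protein of differentiating keratinocytes, had 3.32, Hspb1, a small heat shock protein, 3.19, Fahd1, a mitochondrial hydrolase, 3.00, and Anxa8, an annexin, 2.99.

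**Figure D3:**
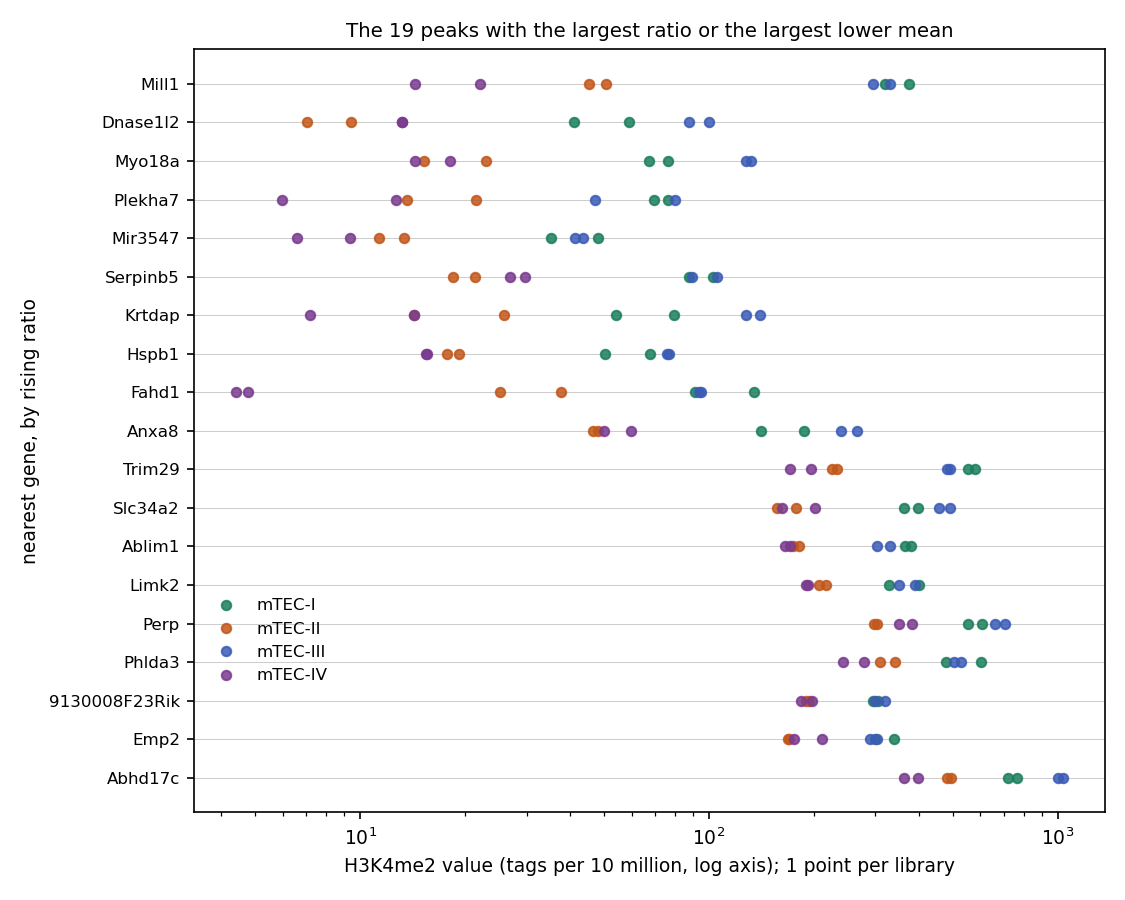
H3K4me2 values (tags per 10000000, log axis) in each of the 8 libraries for the 19 peaks with the largest ratio or the largest lower mean, 1 point per library and 1 row per peak, named by nearest gene. In each row the mTEC-I and mTEC-III points lie to the right of the mTEC-II and mTEC-IV points, with the largest ratio of the means at Mill1 (6.55) and the smallest at Abhd17c (1.52).

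The strongest members were broad peaks over start sites, with smaller ratios. Abhd17c, which encodes an enzyme that removes palmitate from proteins, had 765 and 719.7 in mTEC-I, 999.9 and 1039 in mTEC-III, 495 and 483 in mTEC-II, and 399 and 362 in mTEC-IV, at chr7:91283835-91302373. Its ratio was 1.52, and mTEC-III was above mTEC-I (log2 difference 0.46 ± 0.075, adjusted p = 0.000869). Perp, a p53 target that encodes a component of desmosomes, had 607 and 552 in mTEC-I, 659.9 and 706 in mTEC-III, 303 and 297 in mTEC-II, and 381 and 350.1 in mTEC-IV. All 4 populations carried the Perp mark (chr10:18563196-18574055), and the ratio was 1.59. The other 8 of the 10 strongest were Phlda3 (lower mean 516), Trim29 (486), Slc34a2 (379), Limk2 (364), Ablim1 (317), Mill1 (314), 9130008F23Rik (301) and Emp2 (297), with ratios of 1.53 to 2.13 apart from Mill1.

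To describe the members by what their genes do, 7 groups of genes were formed after the members were known, so the counts are descriptions. At 9 genes of junctions and adhesion there were 10 member peaks. Among them were Perp, Dsc3 and Dsp (desmosomes), Cldn1 and Tjp1 (tight junctions) and Plekha7 (adherens junctions). The Tjp1 member lies 98624 bases from the nearest start and the Dsp member 10847 bases. Dsp had 105 and 112 in mTEC-I, 136 and 128 in mTEC-III, 49.6 and 52.2 in mTEC-II, and 59.4 and 71.1 in mTEC-IV. Cldn1 stood at 275 and 299.6 in mTEC-I and at 428 and 482 in mTEC-III, with both mTEC-III libraries higher (log2 difference 0.66 ± 0.11, adjusted p = 0.000812), and at 179 and 170.3 in mTEC-II and 152 and 143 in mTEC-IV. Dsc3 had the opposite order, with 313 and 294 in mTEC-I and 233 and 247 in mTEC-III (-0.34 ± 0.11, adjusted p = 0.0405), a call that ended with cyclic loess scaling (0.0512) and in 9 other alternatives (0.05 to 0.179).

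The keratinocyte and barrier group had 14 member peaks of 12 genes: Krt5, Krtdap, Crct1, Serpinb5, Trpv3, Sptlc3, Dnase1l2, Anxa8, Tmprss13, Ripk4, Trim29 and Fam83h. Krt5, the keratin of basal cells, had 2 members 519 bases apart. The larger, at chr15:101538697-101542997, held 287 and 249.7 in mTEC-I, 111 and 109.5 in mTEC-III, 67.8 and 53.7 in mTEC-II, and 17.6 and 8.96 in mTEC-IV. The populations did not overlap, in the order mTEC-I, mTEC-III, mTEC-II and mTEC-IV, with mTEC-III below mTEC-I by a log2 difference of -1.27 ± 0.27 (adjusted p = 0.0039) and mTEC-IV below mTEC-II by -2.17 ± 0.27 (adjusted p = 0.000128). The second Krt5 peak had the same order, with 126 and 159 in mTEC-I, 68.8 and 77.7 in mTEC-III, 32.1 and 31.8 in mTEC-II, and 15.4 and 17.3 in mTEC-IV. Its differences were -0.94 ± 0.23 and -0.93 ± 0.23 (adjusted p = 0.00849 and 0.0088), and they passed in all alternatives but those without mTEC-III replicate 1 (0.0713) for the first and without mTEC-II replicate 1, mTEC-II replicate 2 or mTEC-IV replicate 1 (0.0685, 0.0645 and 0.0578) for the second.

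Serpinb5 encodes maspin, a serpin of epithelial cells. The peak on its start site, at chr1:108756807-108759347, had 87.4 and 103 in mTEC-I, 89.6 and 105 in mTEC-III, 21.4 and 18.5 in mTEC-II, and 29.7 and 26.9 in mTEC-IV. The libraries of mTEC-I and mTEC-III interleaved (log2 difference 0.04 ± 0.23, adjusted p = 0.924). Trpv3, a warmth-sensitive channel of keratinocytes, had 98.3 and 58.8 in mTEC-I, 130.0 and 109 in mTEC-III, 26.6 and 28.5 in mTEC-II, and 33.0 and 28.7 in mTEC-IV. Tmprss13, a membrane serine protease, was higher in mTEC-III, at 202 and 199.6, than in mTEC-I, at 79.7 and 88.1 (log2 difference 1.25 ± 0.20, adjusted p = 0.000723).

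The group of immune receptors and innate sensing had 10 members: Mill1, Mr1, Tlr4, Il22ra1, Mst1r, Skint8, Ifi202b, Mndal, Zc3hav1 and Ly6a. Il22ra1, a subunit of the interleukin-22 receptor of epithelia, had 47.2 and 61.7 in mTEC-I, 181 and 158 in mTEC-III, 20.4 and 29.6 in mTEC-II, and 31.3 and 35.9 in mTEC-IV. It had the largest called excess of mTEC-III over mTEC-I among the members (log2 difference 1.63 ± 0.25, adjusted p = 0.000547). Mst1r, the receptor of macrophage-stimulating protein, was at 171 and 123 in mTEC-I and at 320.5 and 346 in mTEC-III (1.19 ± 0.16, adjusted p = 0.000288). Tlr4, the receptor of lipopolysaccharide, had 255 and 364 in mTEC-I and 225 and 244 in mTEC-III, against 151 and 159 in mTEC-II and 113 and 119 in mTEC-IV. Ly6a, a surface protein of progenitor cells, had 258 and 170.4 in mTEC-I, 89.6 and 96.0 in mTEC-III, 47.7 and 58.5 in mTEC-II, and 7.15 and 13.1 in mTEC-IV. Skint8, Ly6a, Ifi202b and Mndal belong to families of near-identical copies, and their values are uncertain because the handling of reads that match several copies is not stated in the sources at hand.

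The cytoskeletal group had 8 members, at Limk2, Ablim1, Gsn, Myo18a, Myo1e, Eps8l1, Utrn and Clip1. Gsn, which encodes the actin-severing protein gelsolin, had 186 and 112 in mTEC-I, 273 and 280.3 in mTEC-III, 74.9 and 74.1 in mTEC-II, and 86.9 and 91.4 in mTEC-IV. The mTEC-III libraries were above the mTEC-I libraries (log2 difference 0.94 ± 0.20, adjusted p = 0.00406). Limk2, a kinase that inactivates cofilin, had 399 and 329 in mTEC-I and 350.1 and 389 in mTEC-III, which overlapped (0.03 ± 0.11, adjusted p = 0.881).

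Among 9 genes of transcription and signalling, the members did not cover a start site, apart from Wnt7b. The Klf5 member, 332997 bases from the start of this factor of proliferating epithelium, had 90.5 and 126 in mTEC-I, 83.9 and 81.3 in mTEC-III, 34.1 and 40.7 in mTEC-II, and 45.1 and 37.6 in mTEC-IV. The Jun member, 24124 bases upstream of this AP-1 subunit, had 51.1 and 61.7 in mTEC-I, 90.2 and 86.6 in mTEC-III, 35.4 and 29.3 in mTEC-II, and 24.2 and 37.0 in mTEC-IV. None of the other peaks of Klf5 or Jun had both the mTEC-I and the mTEC-III mean above both others, and the Klf5 peak 3751 bases past its start had population means of 350 in mTEC-I, 359 in mTEC-II, 469 in mTEC-III and 623 in mTEC-IV. The Smad3 member, near a transducer of TGF-beta signals, was higher in mTEC-III, at 80.1 and 86.0, than in mTEC-I, at 44.1 and 47.0 (log2 difference 0.85 ± 0.26, adjusted p = 0.0279), a call that ended without any 1 library of mTEC-II (0.0533 and 0.0529) or mTEC-III (0.103 and 0.132).

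The p53 targets among the members were Perp, Phlda3, which restrains the kinase Akt, and Gadd45a, a stress-induced growth arrest gene. The Perp and Phlda3 peaks cover a start, while the Gadd45a peak lies 65428 bases from the nearest start. Phlda3 had 604 and 479 in mTEC-I, 504 and 528 in mTEC-III, 341 and 310.3 in mTEC-II, and 278 and 243 in mTEC-IV. Gadd45a was weaker, with 83.6 and 99.9 in mTEC-I, 71.3 and 76.5 in mTEC-III, 40.6 and 39.99 in mTEC-II, and 22.5 and 31.1 in mTEC-IV. At none of these 3 did mTEC-III and mTEC-I differ past the threshold, which 30.8% of all tested peaks passed. Perp came near it, with both mTEC-III libraries higher (log2 difference 0.24 ± 0.08, limma, adjusted p = 0.0532). The Gadd45a libraries also did not overlap, with mTEC-I higher (-0.30 ± 0.23, adjusted p = 0.35).

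Of the 6 microRNA members, Mir205 was the strongest. Its peak at chr1:195332315-195336973 had 501 and 438 in mTEC-I, 266 and 288 in mTEC-III, 115 and 109.6 in mTEC-II, and 62.7 and 38.8 in mTEC-IV. The 4 populations did not overlap and stood in the same order as at Krt5. The log2 difference of mTEC-III from mTEC-I was -0.76 ± 0.19 (adjusted p = 0.00924), a call lost without mTEC-III replicate 1 (0.0898) or 2 (0.0511), and that of mTEC-IV from mTEC-II was -1.17 ± 0.19 (adjusted p = 0.000685). Mir3547 was low, with 48.0 and 35.3 in mTEC-I, 43.5 and 41.2 in mTEC-III, 11.4 and 13.3 in mTEC-II, and 9.35 and 6.57 in mTEC-IV.

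Members were counted in lists of pathway and cell type genes. Of 20 lists, 7 held a member: basal and junctional epithelium (2 of its 47 peaks, both at Krt5), cornified and suprabasal epithelium (1 of 45, Krtdap), epithelial transcription factors (1 of 125, Klf5), AP-1 and early response genes (2 of 77, Jun and Mafk), TGF-beta and BMP (1 of 88, Smad3), endothelium (1 of 36, Egfl7) and the glucocorticoid and circadian response of keratinocytes (1 of 37, Sgk1). The Aire stage and MHC class II list had none among 56 peaks, the tuft cell list none among 50, and the thymocyte, antigen-presenting cell and fibroblast lists none among 24, 9 and 17. Over all peaks 0.594% were members. At that share lists of 9 to 125 peaks would hold few members or none, so a list without a member is not a result about that list. Both the mTEC-I and the mTEC-III mean exceeded both other means at 19.3% of all peaks, a contrast the choice used. That held at 16 of the 45 cornified peaks (35.6%) and 13 of the 37 glucocorticoid and circadian peaks (35.1%). Retinoid and lipid metabolism followed with 16 of 51 peaks (31.4%). Lower shares were found for basal and junctional genes (6 of 47, 12.8%) and epithelial transcription factors (13 of 125, 10.4%). The lowest included 2 of 56 Aire stage peaks and 1 of 50 tuft cell peaks.

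Although chosen as shared, the peaks were not all equal in mTEC-III and mTEC-I. By limma's Benjamini-Hochberg adjusted p under 0.05 over all 29469 tested peaks, 25 of the 175 were higher in mTEC-III and 10 higher in mTEC-I, and 140 were not called. Over all peaks 30.8% were called, 17.1% with mTEC-III higher and 13.7% with mTEC-I higher, so the members' shares of 14.3% and 5.71% were below the background. The rule used the lower of the mTEC-I and mTEC-III means, so these shares are not independent of the choice, and its part in them was not tested. A peak that was not called is not shown to be equal. The members' median log2 difference was 0.08, beside 0.03 over all peaks. Of the 57 peaks that cover a start, 18 were higher in mTEC-III and 6 in mTEC-I. Of the other 118, 7 and 4 were. The same shares over all peaks on and away from a start were not computed. The members on a start were also stronger, with a median lower mean of 171 against 54.7. The split is therefore not a result about start sites.

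The largest called excesses in mTEC-III, after Il22ra1, were at Psapl1 (log2 difference 1.59 ± 0.24, adjusted p = 0.000541), Ddhd2, Tmem40, Sgk1 and Dapl1. Psapl1, a prosaposin-like gene, had 89.8 and 167 in mTEC-I and 368 and 372 in mTEC-III. Sgk1, a kinase induced by glucocorticoids, had 35.6 and 47.0 in mTEC-I and 118 and 110.7 in mTEC-III at a peak 34299 bases from its start (1.46 ± 0.30, adjusted p = 0.00345). Dapl1, a gene of differentiating epithelium, had 183 and 129 in mTEC-I and 425 and 409 in mTEC-III at its start (1.43 ± 0.16, adjusted p = 7.54e-05), while its second member 36116 bases upstream was not called (0.51 ± 0.44, adjusted p = 0.415). Ddhd2, a phospholipase, had 44.1 and 41.1 in mTEC-I and 126 and 130.1 in mTEC-III (1.56 ± 0.34, adjusted p = 0.00496, but 0.0502 and 0.0506 without mTEC-III replicate 1 or 2). Tmem40, which encodes a membrane protein, had 37.1 and 52.9 in mTEC-I and 126 and 132 in mTEC-III (1.52 ± 0.47, adjusted p = 0.0277, but 0.0643 with DESeq2 and 0.136 and 0.147 without mTEC-III replicate 1 or 2).

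The members higher in mTEC-I were led by the Krt5 peaks, Ly6a and Art4. Art4, an ADP-ribosyltransferase of the cell surface, had 266 and 279 in mTEC-I and 126 and 134 in mTEC-III (log2 difference -1.06 ± 0.14, adjusted p = 0.000218). At Ly6a the difference was -1.17 ± 0.29 (adjusted p = 0.00966), a call lost without mTEC-III replicate 1 (0.0821) or 2 (0.0582). Rassf9, of the RASSF family, had 194 and 156 in mTEC-I and 87.7 and 106.6 in mTEC-III (-0.84 ± 0.21, adjusted p = 0.0109, but 0.104 without mTEC-III replicate 1). Mndal, an interferon-inducible gene, had 132 in both mTEC-I libraries and 80.1 and 68.9 in mTEC-III (-0.82 ± 0.26, adjusted p = 0.0329, but 0.0578 to 0.167 without any 1 library of mTEC-II or mTEC-III).

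In the same comparison over all their peaks, called peaks of basal genes were mostly higher in mTEC-I and those of cornified genes mostly higher in mTEC-III, beside 13.7% and 17.1% of all tested peaks. Of the 47 tested peaks of basal and junctional genes, 19 were higher in mTEC-I, 3 were higher in mTEC-III and 25 were not called. Of the 45 peaks of cornified and suprabasal genes, 23 were higher in mTEC-III and 2 in mTEC-I. The members at Krt5 moved as most called peaks of the first list, and the member at Krtdap, with 54.2 and 79.3 in mTEC-I and 127 and 140.1 in mTEC-III, was not called (1.02 ± 0.37, adjusted p = 0.0565). Of 17 fibroblast and mesenchyme peaks 9 were higher in mTEC-I and 2 in mTEC-III, and of 9 peaks of antigen-presenting blood cells 3 were higher in mTEC-III and 0 in mTEC-I. The part of such cells in the members' differences was not tested.

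Between the populations low at these peaks, mTEC-IV was usually the lower. By the same test 58 of the 175 were lower in mTEC-IV than in mTEC-II (33.1%) and 5 were higher (2.86%), beside 12.7% and 17.4% of all tested peaks (30.1% called in both directions). The members' median log2 difference was -0.42, against 0.07 over all peaks. Scaling to equal totals in peaks moved the median of all peaks to -0.06. Under that scaling, relative to the median of all peaks the members stood at -0.50, a value that such a scaling can hardly move, and at -0.47 with cyclic loess, which could move it. The rule limits the higher of the mTEC-II and mTEC-IV means and does not fix which is lower. Of the 118 peaks away from a start 42 were lower in mTEC-IV and 2 higher, and of the 57 on a start 16 and 3. For this split, too, the shares over all peaks on and away from a start were not computed. Of the peaks of the endothelium list 11 of 36 were higher in mTEC-IV and 4 lower, and of the thymocyte list 3 of 24 were higher and 6 lower. The part of the Ptprc and Cdh5 levels in this result was not tested.

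This lower mTEC-IV level was not particular to peaks shared by mTEC-I and mTEC-III. Peaks strongest in mTEC-I alone by the same limits had a median log2 difference of -0.27, with 190 of 654 lower and 10 higher in mTEC-IV. Peaks strongest in mTEC-III alone had -0.24, with 176 of 1007 lower and 57 higher. The difference between these sets was not tested.

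The largest called deficit in mTEC-IV was at a peak 6941 bases from the start of Duoxa2, a maturation factor of the oxidase DUOX2. It had 26.9 and 28.9 in mTEC-II and 3.30 and 1.19 in mTEC-IV, with 47.2 and 41.1 in mTEC-I and 51.7 and 43.0 in mTEC-III (log2 difference of mTEC-IV from mTEC-II -3.23 ± 0.40, adjusted p = 0.000143). The mTEC-IV libraries held 4 tags there in all, and mTEC-II exceeded mTEC-IV by 12.2-fold (95% counting interval 4.60 to 46.0). Fahd1 had 37.6 and 25.2 in mTEC-II and 4.40 and 4.78 in mTEC-IV (-2.51 ± 0.30, adjusted p = 0.000104; 8 tags in mTEC-IV), against 134.6 and 91.1 in mTEC-I and 94.6 and 93.6 in mTEC-III. A peak 26857 bases upstream of Egfl7, a secreted factor of endothelium, had 27.6 and 20.4 in mTEC-II and 5.50 and 2.39 in mTEC-IV (-2.40 ± 0.39, adjusted p = 0.000849; 7 tags in mTEC-IV). A peak of Fbln1, the matrix protein fibulin-1, had 22.4 and 22.2 in mTEC-II and 4.95 and 2.39 in mTEC-IV (-2.37 ± 0.40, adjusted p = 0.000955; 7 tags in mTEC-IV). Mr1, which presents vitamin B metabolites to T cells, had 20.1 and 19.3 in mTEC-II and 7.15 and 3.58 in mTEC-IV (-1.76 ± 0.37, adjusted p = 0.00354; 9 tags in mTEC-IV). All of these were weak peaks in mTEC-II and held few tags in mTEC-IV.

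Deficits at deeper peaks included that of a peak 23815 bases from the start of Fat2, a giant protocadherin of epithelium. This peak had 81.4 and 82.9 in mTEC-II and 19.2 and 21.5 in mTEC-IV (log2 difference -1.96 ± 0.19, adjusted p = 2.37e-05). Ly6a differed by -2.33 ± 0.29 (adjusted p = 0.000137) and the Plekha7 peak on the start by -0.95 ± 0.14 (adjusted p = 0.000514). Skint8 was lower in mTEC-IV, at 73.1 and 74.7, than in mTEC-II, at 122 and 148, and higher in mTEC-III, at 372 and 422, than in mTEC-I, at 202 and 244. Its differences were -0.86 ± 0.14 and 0.83 ± 0.14 (adjusted p = 0.000842 and 0.00105). In all, 15 members were called in both comparisons, 48 only between mTEC-IV and mTEC-II, 20 only between mTEC-III and mTEC-I, and 92 in neither.

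The 5 members higher in mTEC-IV were D730001G18Rik, Eps8l1, Nav3, Plekhg6 and Perp. D730001G18Rik, at a peak 6252 bases upstream of its start, had 49.6 and 54.8 in mTEC-II and 97.3 and 116.5 in mTEC-IV (log2 difference 1.02 ± 0.18, adjusted p = 0.00134). Eps8l1, related to an actin regulator, had 49.96 and 54.8 in mTEC-II and 86.3 and 81.3 in mTEC-IV (0.67 ± 0.17, adjusted p = 0.00959). Its call ended without mTEC-II replicate 1 (0.0903) or mTEC-IV replicate 1 (0.073). Perp differed by 0.28 ± 0.08 (adjusted p = 0.0246), Plekhg6 by 0.37 ± 0.12 (0.0289) and Nav3 by 0.60 ± 0.16 (0.0147). The calls of Perp and Plekhg6 ended with equal totals (0.187 and 0.124), with cyclic loess (0.0654 and 0.0658) and without any 1 library of mTEC-II or mTEC-IV (0.0526 to 0.184), and that of Nav3 without mTEC-II replicate 2 or either mTEC-IV library (0.0731 to 0.148).

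**Figure D4:**
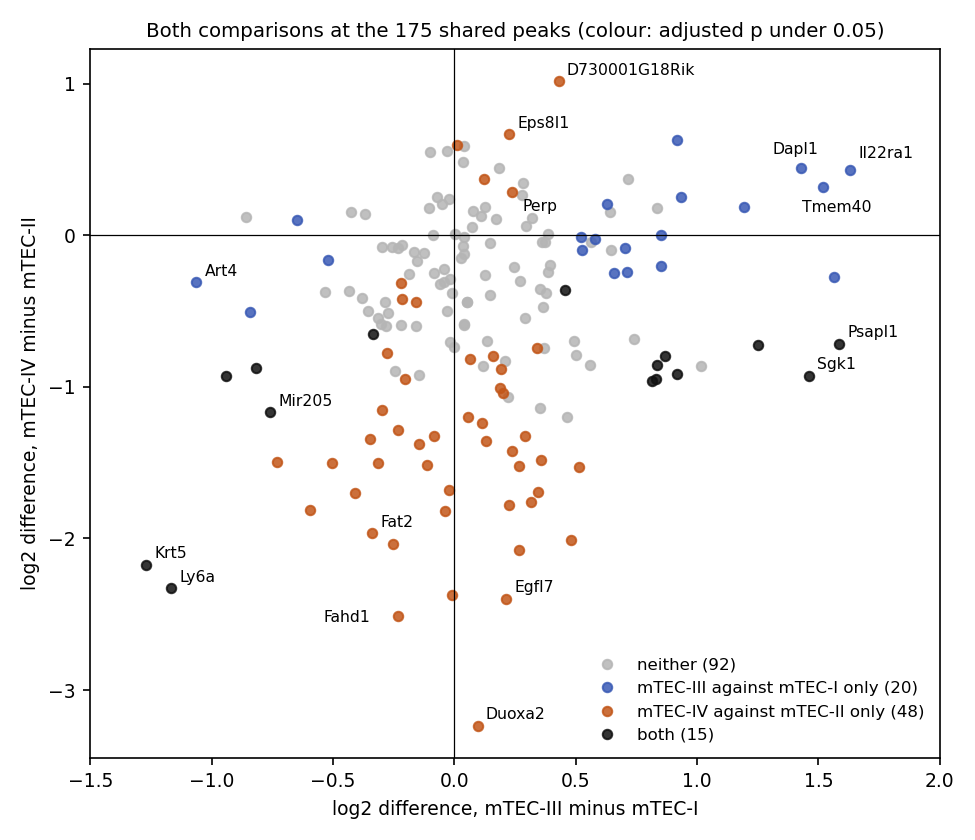
Log2 difference of mTEC-III from mTEC-I (horizontal) against that of mTEC-IV from mTEC-II (vertical) at the 175 shared peaks, on the log2(value + 1) scale, coloured by which comparison passed an adjusted p under 0.05. Most orange points, called between mTEC-IV and mTEC-II alone (48 peaks), lie below the horizontal line, and the black points at the lower left include Krt5 (-1.27 and -2.17) and Ly6a (-1.17 and -2.33). The same split over all peaks was not computed.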

How the data were processed

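H3K4me2 ChIP-seq was compared in 8 libraries, and the 8 whole-cell extract samples are not analysed here. The build was mm9, with Picard 1.108 and bcl2fastq 2.15.0.4 among the tools, per the submitters' processing notes. For the aligner, duplicate handling and peak settings, nothing is stated in the labels or headers. The merged table deposited by the authors holds signal per peak in tags per 10000000 tags of each library, counted with HOMER's annotatePeaks per the file headers. A peak's gene is that of the nearest start site in this table. The lists deposited by the authors also give each peak's fold over a control as a ratio, which entered no test. Multiplied by the header totals, the signal falls on steps of 0.5 tags.

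limma 3.58.1 (R 4.3.3) with trended variance was fitted to log2(value + 1) in all 8 libraries. A peak was tested if 2 libraries or more reached 10 tags per 10000000, which kept 29469 peaks and all 175 members and dropped 1 peak. The 4 populations shared 1 estimate of spread (4 residual and 7.75 prior degrees of freedom), so a population left with 1 library is assumed to vary like the others. Benjamini-Hochberg adjusted p-values under 0.05 over all tested peaks were called. Fold changes on this scale understate the change of low peaks. The alternatives were pseudocounts of 5 and 10, other filters and scalings, edgeR 4.0.16, DESeq2 1.42.0 and voom on the recovered steps (2 counts per tag), left-out libraries and a replicate block. The fit was also run on simulated tag counts, with the outcome not given here. The simulation gave every library the same spread beyond counting error, so it cannot speak to populations that differ in that spread.

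The members, lists and groups were chosen with earlier results of these data known. Named members were those with the 10 largest ratios and 10 largest lower means, up to 6 called in each direction between mTEC-III and mTEC-I and up to 4 between mTEC-IV and mTEC-II whose libraries did not overlap, genes with most member peaks, members of the lists and peaks beside the limits. Members of the functional groups, and Perp among those higher in mTEC-IV, were named after their values were seen.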

Additional observations from a re-analysis of the deposited data

How the results depend on the processing

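The number of shared peaks depends on the limits: it was 61 with a ratio of at least 2, 245 with a level limit of 20, 68 with a limit of 80, and 79 when every library had to meet both limits. Equal totals in peaks gave 164, of which 156 were members. With 1 library left out it was 173 to 197, and the 178 peaks without mTEC-I replicate 2 held 136 of the 175 members.

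Members higher in mTEC-III than in mTEC-I numbered 12 to 29 without 1 library (12 and 13 without mTEC-III replicate 1 or 2) and 22 to 37 otherwise. Those higher in mTEC-I numbered 2 to 16 without 1 library (2 and 4 without mTEC-III replicate 1 or 2, 16 without mTEC-I replicate 1) and 10 to 13 otherwise. Those higher in mTEC-IV than in mTEC-II numbered 1 to 8 without 1 library, with changes of over 1.5 times for each library of mTEC-I, mTEC-II and mTEC-IV. They were 3 with equal totals in peaks, 3 with cyclic loess and 8 with only the 4 libraries compared. Those higher in mTEC-II numbered 32 to 82 without 1 library (32 and 33 without mTEC-II replicate 1 or 2, 37 without mTEC-IV replicate 2) and 57 to 85 otherwise. Of 58 named calls, 29 passed in every alternative and 50 in every alternative that kept all libraries, and none reversed. The cause of these changes was not tested.

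Replicate differences of the populations correlated by -0.0125 to 0.0159 across peaks. These differences include counting error, so they cannot show whether libraries of the same replicate number shared a batch. With the replicate block, 22 members were higher in mTEC-III and 10 in mTEC-I, and 5 were higher in mTEC-IV and 60 in mTEC-II.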
